A study of Mus musculus with 29 samples.

Results

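The effect of losing p110β in skeletal muscle fibers was estimated as an average over feeding states in 14 of the 29 mice of the study, the mice of the p110β line. For each of 11826 expressed genes the quantity is the genotype coefficient of a model that adds genotype and feeding state, given as the log2 fold change of M-p110βKO muscle against control muscle at equal feeding state. The 14 mice were 3 fed controls (mice 16 to 18), 4 fed M-p110βKO mice (19 to 22), 3 fasted controls (23 to 25) and 4 fasted M-p110βKO mice (26 to 29). The genotype coefficient was also estimated in 12 mice, without the fasted controls 23 and 24, whose libraries held adipocyte transcripts. Mouse 25 is then the only fasted control, so the fed mice weigh more in this average. Between the 14 and the 12 mice, loss of the adipocyte transcripts and the changed weight of the feeding states cannot be told apart. The p110β line carries a floxed exon 2 of the gene for p110β, Pik3cb, and the M-p110βKO mice carry Cre recombinase under the human skeletal actin promoter, which is active in muscle fibers. Other cells of the muscle therefore keep the gene. The mice were males of 2 to 3 months labelled C57BL/6J, though the study describes the p110β line as less purely C57BL/6 than the p110α line. The controls, labelled p110beta.WT, are the floxed mice that the study sets against M-p110βKO mice, and whether any carried Cre is not given in the sources used here. RNA came from skeletal muscle of mice that were either fed (Fed) or fasted (Fast), the other 15 mice belong to a p110α line of the same design, and the p-values measure the spread between these mice.

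Class I phosphoinositide 3-kinases make the lipid messenger PIP3 at the plasma membrane. Each enzyme pairs a catalytic subunit, such as p110α or p110β, with a regulatory subunit, such as p85α. p110α is the main carrier of the insulin signal to AKT in many tissues, while p110β can also be switched on by Gβγ released from G protein-coupled receptors and by the small GTPases Rac and Cdc42.

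The 14 libraries held 5859311 to 8599227 counts each. Gene levels are given as counts per 1000000 (CPM) after scaling of library sizes. Acta1, Ckm, Myh4 and the other myofiber markers summed to 106000 to 137000 CPM in every library. Within groups, all 18 pairs of libraries differed beyond sampling noise, with a chi-square of 3.92 to 22.4 per degree of freedom, so none was a library entered again.

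Several libraries stood apart from the rest of their group, and some results rest on them. The adipocyte genes Adipoq, Plin1, Cidec and Cfd together reached 137 and 131 CPM in the fasted controls 23 and 24, against 0.124 to 8.55 CPM in the other 12 libraries. Among the fed controls, mice 17 and 18 differed from mouse 16. Pdk4, the kinase that closes pyruvate dehydrogenase during fasting, stood at 380 CPM in mouse 16 and at 926 and 923 CPM in mice 17 and 18, while the fed M-p110βKO mice spanned 379 to 521 CPM and the fasted mice 4810 to 6160 CPM. The clock gene Per2 was at 18.4 CPM in mouse 16, at 47.0 and 40.4 CPM in mice 17 and 18, and at 17.8 to 21.3 CPM in the fed M-p110βKO mice. Cilp, a cartilage and matrix protein, was at 67.5 and 82.9 CPM in mice 17 and 18 and at 1.61 to 6.41 CPM in all others. Mouse 25, the remaining fasted control, held 35.0 CPM of Myh7, the slow myosin heavy chain, against 0.289 to 4.66 CPM elsewhere. In a principal component analysis of the 14 libraries the second component, with 10.1% of the variance, set mice 23 and 24 apart at -28.0 and -32.4, and the fourth, with 6.24%, set mice 17 and 18 apart at -28.7 and -18.9. The genotype difference within feeding states was 16.35 on the second component (exact permutation p = 0.0367 over 1225 arrangements, adjusted p = 0.0969 over 4 components) and 11.54 on the fourth (exact permutation p = 0.0727, adjusted p = 0.0969). The part of these differences in the results was not tested beyond the leave-outs given with them.

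**Figure D1:**
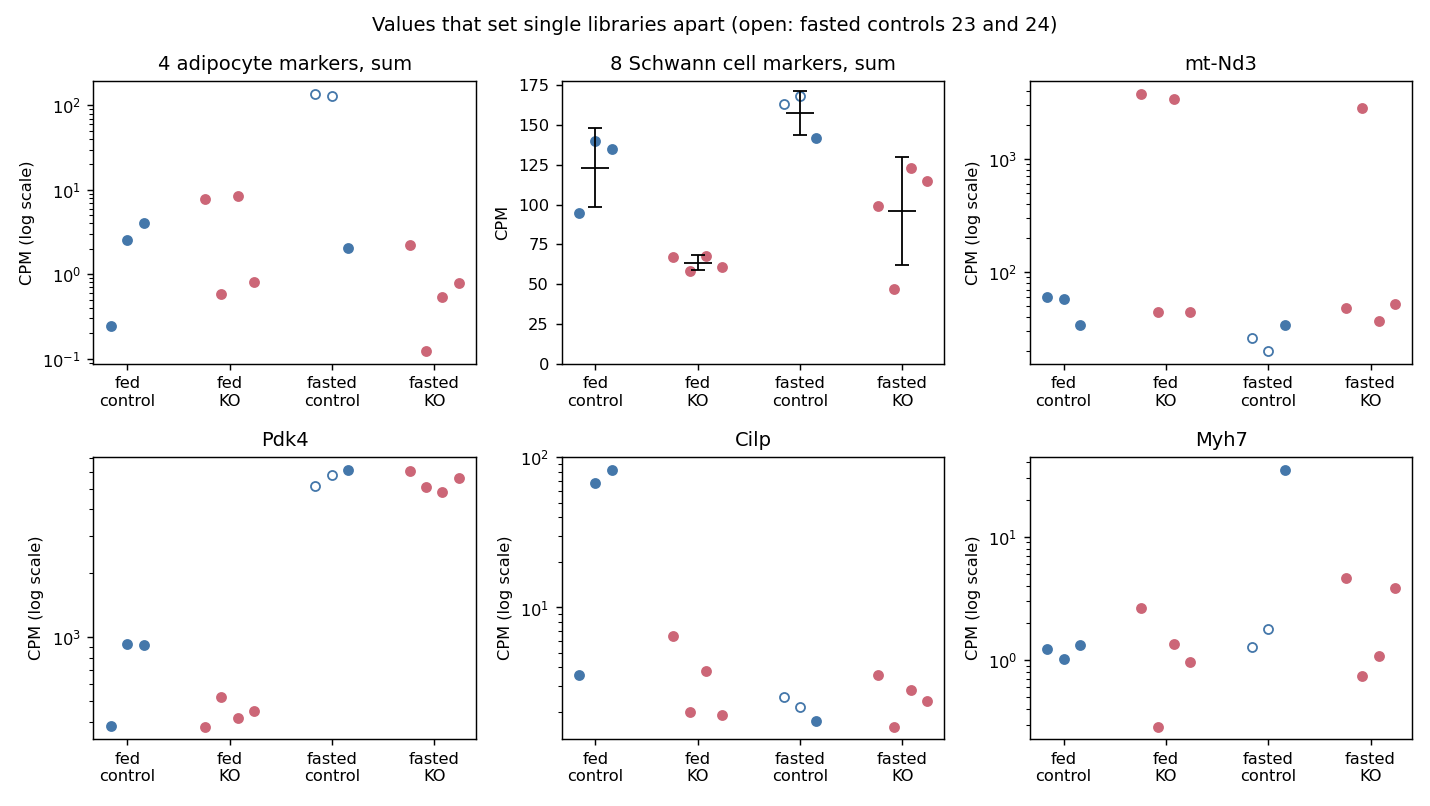
Level in CPM per mouse by group (blue, controls; red, M-p110βKO mice; open, fasted controls 23 and 24) for the sum of 4 adipocyte markers, the sum of 8 Schwann cell markers, mt-Nd3, Pdk4, Cilp and Myh7, on log axes except for the Schwann sum, whose lines give mean and SD. Mice 23 and 24 lie above all others for the adipocyte sum, mice 17 and 18 above mouse 16 for Pdk4 and Cilp, mouse 25 above all for Myh7, and 3 M-p110βKO mice above all for mt-Nd3.

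The mRNA of the targeted gene was not called different between genotypes. Pik3cb stood at 10.5, 9.98 and 10.7 CPM in fed controls, 9.69, 10.2, 9.77 and 11.8 CPM in fed M-p110βKO, 8.73, 9.35 and 10.3 CPM in fasted controls and 10.3, 9.39, 9.63 and 9.73 CPM in fasted M-p110βKO mice, from 59 to 89 counts per library. The groups overlapped in both feeding states, and the genotype coefficient was 0.02 on the log2 scale (95% interval -0.177 to 0.216). The counts were summed over all exons, so they do not check the deletion of exon 2. Pik3ca, which encodes p110α, was the more abundant catalytic subunit, at 14.5 CPM per kilobase of exon on average against 1.39 for Pik3cb. Its genotype coefficient was 0.05 (95% interval -0.153 to 0.244), with 107 to 160 CPM over the 14 libraries.

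The regulatory and other catalytic subunits showed no call either. Of 10 class I subunit genes, 7 passed the filter on low counts. In the edgeR quasi-likelihood test with Benjamini-Hochberg adjustment 0 were called. Against 9.9% of all genes, 2 of the 7 had an unadjusted p under 0.05. These were Pik3r3, a regulatory subunit (log2 fold change 0.32, 95% interval 0.059 to 0.576, edgeR adjusted p = 0.365), and Pik3cd, the leukocyte-enriched catalytic subunit p110δ (0.32, 0.0395 to 0.598, edgeR adjusted p = 0.414). Pik3r1, which encodes p85α, and Pik3r2, which encodes p85β, had coefficients of 0.21 and 0.13. Pik3r6, an adaptor of p110γ, was at -0.02. Pik3cg, Pik3r5 and Pik3ap1 did not pass the filter. In a list of G proteins and small GTPases drawn up for p110β, 0 of 17 tested genes were called by edgeR. Not all members of the list, Rras2 among them, are established inputs to p110β. At an unadjusted p under 0.05, against 4.68% of all genes higher and 5.23% lower, the list had 3 genes, all higher in M-p110βKO muscle. They were Rras2 (0.22), Gng12 (0.18) and Gng11 (0.23), and in the 12 mice none of the list reached an unadjusted p of 0.05.

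Few transcripts were called different at the average over feeding states. In the 14 mice 19 genes were called at an adjusted p under 0.05, which is 0.161% of the 11826 genes tested, with 11 higher (0.093%) and 8 lower (0.0676%) in M-p110βKO muscle. At an unadjusted p under 0.05, 553 genes had higher estimates (4.68%) and 618 lower ones (5.23%). The median absolute genotype coefficient was 0.0951, 95% of genes lay within 0.467, and 56 genes lay beyond 1 on the log2 scale. The feeding coefficient of the same model called 5669 genes (47.9%), with a median absolute value of 0.308. The smallest change called between genotypes was 0.356.

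Of the 11 genes that rose, Plekhh3 had the lowest adjusted p. Plekhh3, which encodes a protein with pleckstrin homology and FERM domains, was at 35.8, 36.4 and 37.9 CPM in fed controls, 55, 51.2, 49.4 and 52.7 CPM in fed M-p110βKO, 20.9, 22.8 and 16.4 CPM in fasted controls and 29.2, 29.4, 34.2 and 31.8 CPM in fasted M-p110βKO mice. Genotypes did not overlap in either state, and the fold change was 1.48 (log2 0.57 ± 0.08 SE, edgeR adjusted p = 0.0158). Rara, the retinoic acid receptor α, stood at 12.3, 12.9 and 12.4 CPM in fed controls, 21.1, 22.8, 16.4 and 20.0 CPM in fed M-p110βKO, 8.10, 8.20 and 6.54 CPM in fasted controls and 11.7, 9.76, 10.2 and 11.0 CPM in fasted M-p110βKO mice. It too was higher in every M-p110βKO mouse than in any control of the same state (1.5-fold, log2 0.59 ± 0.10 SE, edgeR adjusted p = 0.0231). Ttyh2, a membrane protein of the tweety family, rose 1.78-fold (log2 0.83 ± 0.13 SE, edgeR adjusted p = 0.0203), from 15.6, 9.98 and 12.1 to 21.1, 29.9, 20.8 and 24.8 CPM in fed mice and from 4.30, 4.74 and 4.50 to 7.06, 8.65, 6.82 and 6.38 CPM in fasted mice, again without overlap.

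For Tulp3, Mfhas1 and Cgref1 all 8 M-p110βKO libraries lay above all 6 control libraries. Tulp3, which carries receptors into the primary cilium, spanned 14.0 to 21.9 CPM in controls and 25.0 to 32.9 CPM in M-p110βKO mice (log2 0.71 ± 0.11 SE, edgeR adjusted p = 0.0203). Mfhas1, a leucine-rich repeat protein, was at 13.2, 17.1 and 17.8 CPM in fed controls and 21.4, 19.5, 19.3 and 24.1 CPM in fed M-p110βKO mice, and at 11.8, 9.99 and 17.9 against 26.2, 33.2, 41.8 and 30.6 CPM in fasted mice. Its fold change was 1.82 (log2 0.86 ± 0.17 SE, edgeR adjusted p = 0.0464), and all values of the M-p110βKO mice were at or above 19.3 CPM. Cgref1, a calcium-binding EF-hand protein, was scarce, at 0.581 to 1.18 CPM in controls and 1.25 to 2.87 CPM in M-p110βKO mice (4 to 19 counts per library, log2 1.41 ± 0.24 SE, edgeR adjusted p = 0.0231).

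2 further genes that rose encode subunits of ion channels. Scn3b, a β subunit of voltage-gated sodium channels, had the largest estimate among the rises, 3.21-fold (log2 1.68 ± 0.28 SE, edgeR adjusted p = 0.0231), with 1.83, 1.02 and 0.601 against 2.81, 4.76, 2.99 and 4.79 CPM in fed mice and 2.15, 2.05 and 5.66 against 7.22, 8.89, 15.6 and 9.09 CPM in fasted mice. Cacna2d4, an α2δ subunit of voltage-gated calcium channels, rose 1.68-fold (log2 0.75 ± 0.14 SE, edgeR adjusted p = 0.0393), but in fasted mice the highest control, at 6.25 CPM, nearly met the lowest M-p110βKO mouse, at 6.26 CPM. Trim7, a ubiquitin ligase that binds glycogenin, spanned 36.4 to 40.3 against 45.5 to 55.5 CPM in fed mice and 6.25 to 9.62 against 13.6 to 16.4 CPM in fasted mice (log2 0.58 ± 0.11 SE, edgeR adjusted p = 0.0393). Ahdc1, an AT-hook protein, spanned 24.5 to 36.0 against 42.2 to 51.6 CPM and 22.9 to 25.6 against 30.1 to 34.0 CPM (log2 0.48 ± 0.09 SE, edgeR adjusted p = 0.0393). The last gene that rose, 6430571L13Rik (log2 0.60 ± 0.11 SE, edgeR adjusted p = 0.0393), was the only rise whose genotypes overlapped, in the fasted state.

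Of the 8 genes that fell, 5 had no overlap between genotypes in either state. Ctso, the lysosomal protease cathepsin O, was lower in all 8 M-p110βKO libraries (8.02 to 10.5 CPM) than in all 6 controls (11.3 to 17.1 CPM), by -0.52 ± 0.10 SE on the log2 scale (edgeR adjusted p = 0.0393). Ifi203, an interferon-inducible gene of the Ifi200 family, was at 16.4, 16.6 and 17.9 CPM in fed controls, 12.0, 10.1, 10.4 and 8.07 CPM in fed M-p110βKO, 8.10, 9.73 and 11.5 CPM in fasted controls and 5.3, 7.66, 6.15 and 6.70 CPM in fasted M-p110βKO mice (log2 -0.67 ± 0.12 SE, edgeR adjusted p = 0.0231). The family has near-identical copies, so the assignment of reads to Ifi203 is uncertain. Clk1, a kinase that phosphorylates splicing factors, had the smallest change called, from 127 to 145 CPM down to 99.7 to 117 CPM in fed mice and from 182 to 219 CPM down to 148 to 169 CPM in fasted mice (log2 -0.36 ± 0.07 SE, edgeR adjusted p = 0.0393).

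Genes of myelinated nerve were among those that fell. Pmp22, a protein of peripheral myelin, was at 39.5, 52.4 and 44.1 CPM in fed controls, 31.9, 23.4, 30.5 and 22.2 CPM in fed M-p110βKO, 63.3, 63.3 and 54.3 CPM in fasted controls and 35.2, 19.6, 45.2 and 43.6 CPM in fasted M-p110βKO mice (0.595-fold, log2 -0.75 ± 0.14 SE, edgeR adjusted p = 0.0393). Genotypes did not overlap in either state. Nfasc, neurofascin, an adhesion protein of the nodes of Ranvier, had 1.10, 1.52 and 1.68 against 0.625, 0.433, 0.407 and 0.274 CPM in fed mice and 2.78, 2.56 and 2.61 against 1.44, 0.371, 1.20 and 0.957 CPM in fasted mice (log2 -1.53 ± 0.27 SE, edgeR adjusted p = 0.0231), again without overlap. In whole muscle, fewer cells of a type and less RNA per cell cannot be told apart.

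The remaining 3 falls overlapped between genotypes and carried the largest estimates among low counts. Htra4, a secreted serine protease, was at 1.58, 8.97 and 10.3 CPM in fed controls and 2.03, 0.577, 2.58 and 1.23 CPM in fed M-p110βKO mice, and at 11.8, 6.28 and 2.90 against 0.161, 0, 0.134 and 0.16 CPM in fasted mice (log2 -3.10 ± 0.53 SE, edgeR adjusted p = 0.0231). Control 16 lay among the fed M-p110βKO mice, and the fasted M-p110βKO libraries held 1 count or 0 counts. Spp1, osteopontin, had 0.365, 1.86 and 2.04 CPM in fed controls against 0.625, 0.433, 0.407 and 0.410 CPM, and 3.04, 3.46 and 5.96 CPM in fasted controls against 1.12, 0.618, 1.47 and 1.12 CPM, with control 16 below every M-p110βKO mouse (log2 -1.80 ± 0.32 SE, edgeR adjusted p = 0.0250). Cyp2e1, a cytochrome P450, was at 18.9 and 13.2 CPM in the fasted controls 23 and 24, at 2.90 CPM in mouse 25 and at 0 to 3.21 CPM in all other libraries (log2 -2.98 ± 0.58 SE, edgeR adjusted p = 0.0393). Without the adipocyte-rich libraries 23 and 24 the estimate was -1.46 with an unadjusted edgeR p of 0.0383, and the fed controls 17 and 18, at 1.52 and 1.44 CPM, lay above the fed M-p110βKO mice, at 0 to 0.543 CPM.

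**Figure D2:**
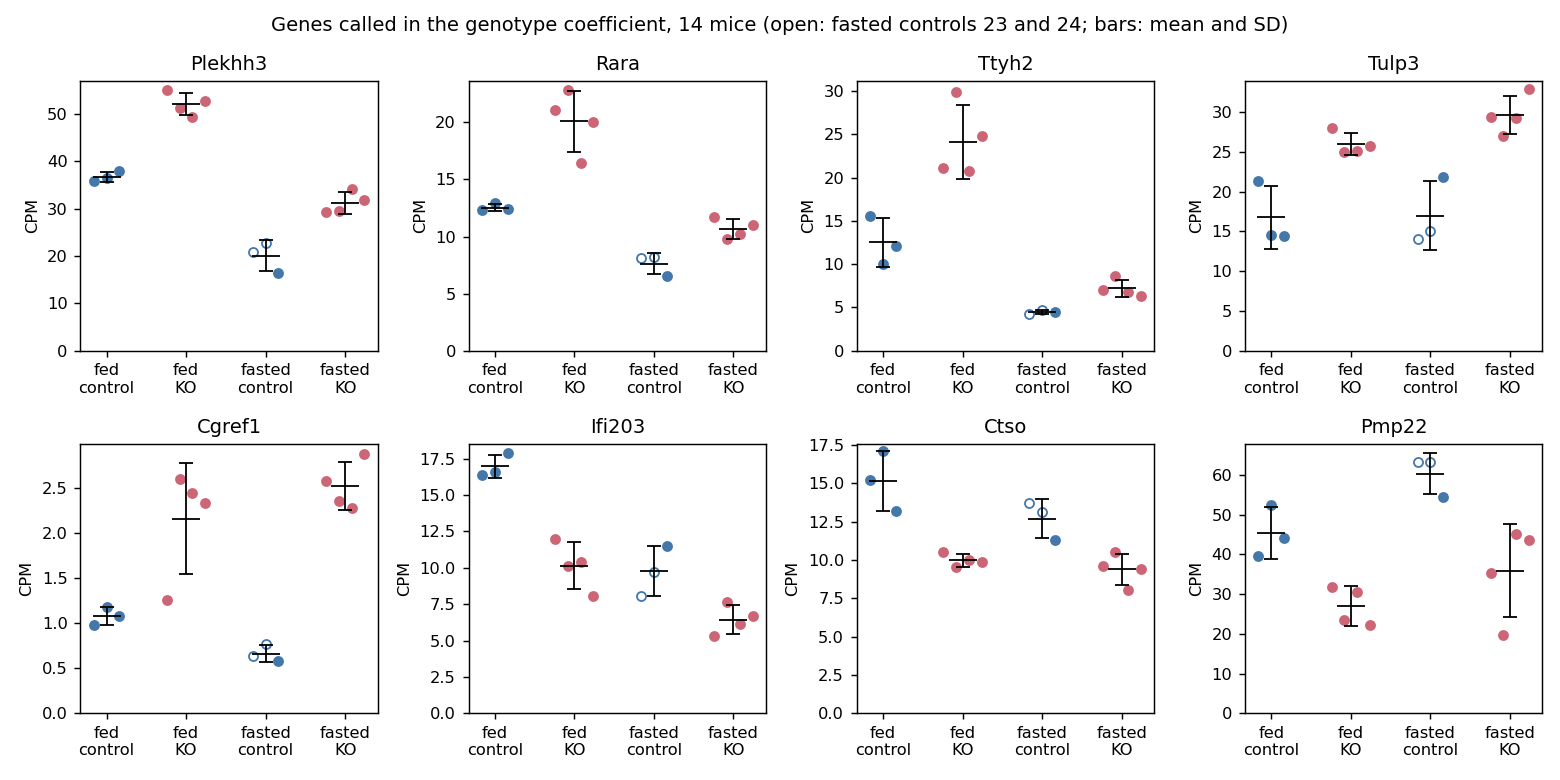
CPM per mouse by group for 8 of the 19 called genes, with lines for mean and SD (blue, controls; red, M-p110βKO mice; open, fasted controls 23 and 24). In each of the 8 panels the M-p110βKO and control points do not overlap within the fed or within the fasted mice, and for Tulp3, Cgref1 and Ctso they do not overlap over both states.

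Over the 19 called genes, 15 did not overlap between genotypes in either state, against 84 of all genes tested (0.71%). Since the calls use the same values, this describes the genes and is no further test. Some of the 19 also changed with fasting in the same fit, in which 47.9% of all genes were called (2780 higher and 2889 lower in fasted mice, of 11826). Of the 11 genes higher in M-p110βKO muscle, 7 were called lower in fasted than in fed mice and 1, Scn3b, higher. Of the 8 genes lower in M-p110βKO muscle, 5 were called higher in fasted mice and 1, Ifi203, lower. Tulp3, Mfhas1, Ctso and Htra4 were among those with no feeding call.

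At the threshold, Cyp2e1 (edgeR adjusted p = 0.0393) and Mfhas1 (0.0464) lay just inside. Mbp and H2-D1 (both 0.0502), Ripor2 (0.0576) and Reln and Catsper4 (both 0.0596) lay just outside.

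Without the fasted controls 23 and 24, 6 genes of 12085 were called (0.0496%), 4 higher (0.0331%) and 2 lower (0.0165%), and 451 (3.73%) had higher and 584 (4.83%) lower estimates at an unadjusted p under 0.05. Plekhh3, Rara, Ttyh2 and Ifi203 were called with both sets of mice, with log2 fold changes in the 12 mice of 0.61, 0.68, 0.87 and -0.77 and an edgeR adjusted p of 0.0427 for each. All 19 genes called in 14 mice kept their sign and an unadjusted p under 0.05 in the 12. This is no further test, since the 12 mice are among the 14. Of the 19 genes, 15 were not called in 12. Spp1 (log2 -2.05, edgeR adjusted p = 0.0539) and Htra4 (-2.49, 0.0730) were nearest to the threshold among these, and Cyp2e1 (-1.46, 0.546) was farthest.

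2 genes were called in the 12 mice only. Tiam1, an exchange factor that activates Rac, moved from a log2 fold change of 0.52 to 1.05 (edgeR adjusted p = 0.0427 in 12 mice). Its levels were 11.0, 10.7 and 8.90 CPM in fed controls against 14.1, 26.7, 18.5 and 27.1 CPM in fed M-p110βKO mice, and 8.23, 9.35 and 3.20 against 4.98, 7.29, 6.28 and 5.42 CPM in fasted mice. In the fasted state only mouse 25 lay below the M-p110βKO mice, and that mouse is the single fasted control once mice 23 and 24 are left out. Pde7a, a phosphodiesterase that degrades cAMP, moved from -0.58 to -0.83 and was also called in the 12 mice.

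Leaving out mice 23 and 24 shifted the coefficients of the adipocyte genes most. The median absolute shift over 11823 genes tested in both sets was 0.0705, with 147 genes beyond 0.5 and 19 beyond 1. Cfd, an adipocyte-secreted protease, moved from -3.09 to 0.41, Scd1, a fatty acid desaturase, from -2.22 to 0.45, Hp, haptoglobin, from -1.83 to 0.14, and Dkk3, a secreted glycoprotein, from -1.77 to -0.28. None of these 4 genes was called in the 14 mice. In both genotypes of the other 12 mice the defining adipocyte genes were near 0, with 7.81 and 8.55 CPM summed in the fed M-p110βKO mice 19 and 21 as the highest values. Car3, an enzyme of adipocytes and muscle fibers, made up most of the 10-gene adipocyte list's counts and ran the other way. It stood at 348 and 312 CPM in mice 23 and 24, at 1360 CPM in mouse 25 and at 1860 to 3510 CPM in the fasted M-p110βKO mice (log2 1.36 ± 0.30 SE, edgeR adjusted p = 0.0656, and 0.83, 0.0639 in 12 mice).

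**Figure D3:**
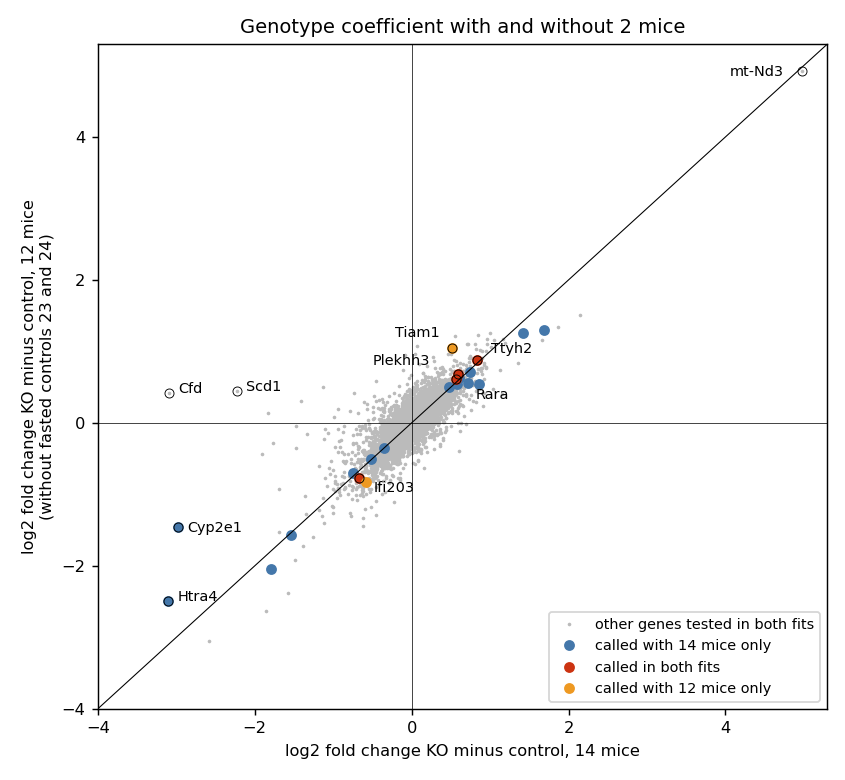
Genotype log2 fold change of each gene tested in both sets, in 14 mice (horizontal axis) and in 12 mice without the fasted controls 23 and 24 (vertical axis), coloured by where the gene was called. Most called genes lie near the diagonal and Cyp2e1 and Htra4 above it, while Cfd and Scd1, which were not called, go from below -2 to slightly above 0.

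The clearest group among the gene lists was that of Schwann cells and nerve, the glia and axon-ensheathing proteins of the motor and sensory nerves in muscle. Of 8 genes 5 passed the filter. All 5 had a lower estimate at an unadjusted p under 0.05, against 5.23% of all genes. Their median coefficient was -0.75 against 0.00288 over all genes. There was 1 call, Pmp22, against 0.0676% of all genes called lower. Mbp, myelin basic protein, was at 13.8, 25.4 and 27.6 CPM in fed controls, 9.69, 9.24, 10.9 and 9.71 CPM in fed M-p110βKO, 24.7, 27.2 and 27.3 CPM in fasted controls and 15.9, 6.79, 20.2 and 19.9 CPM in fasted M-p110βKO mice. Its genotypes did not overlap, and control 16 lay nearest to the M-p110βKO mice (log2 -0.95 ± 0.19 SE, edgeR adjusted p = 0.0502). Prx, periaxin, a scaffold protein of myelinating Schwann cells, had a coefficient of -0.64.

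The summed level of the 8 nerve genes was 94.8 to 140 CPM in fed controls against 58.2 to 68.0 CPM in fed M-p110βKO mice, and 142 to 168 CPM against 47.1 to 123 CPM in fasted mice. The median coefficient was -0.78 in the 12 mice and between -0.813 and -0.651 with each mouse left out in turn, and each time all 5 genes kept an unadjusted p under 0.05. Without the fed controls 17 and 18 it was -0.68, with 4 of 5 at that threshold.

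Genes of the interferon response, which cells switch on through factors such as STAT2 and IRF9 after type I interferon, had lower estimates in M-p110βKO muscle throughout. All 20 tested genes of 22 had a coefficient below 0, and 13 of 20 had an unadjusted p under 0.05, against 5.23% of all genes, but 0 passed the adjusted threshold in the edgeR test. The median was -0.42. Rsad2, the antiviral enzyme viperin, was at 9.38, 14.2 and 13.8 CPM in fed controls, 3.59, 8.08, 4.61 and 7.52 CPM in fed M-p110βKO, 13.5, 11.3 and 11.2 CPM in fasted controls and 6.90, 5.56, 10.6 and 7.34 CPM in fasted M-p110βKO mice, without overlap in either state (log2 -0.85 ± 0.18 SE, edgeR adjusted p = 0.0596). Ifi44 had 2.68, 2.71 and 1.68 against 1.09, 1.59, 1.22 and 1.09 CPM in fed mice and 1.52, 1.92 and 2.61 against 0.482, 1.11, 0.401 and 0.638 CPM in fasted mice, again without overlap (log2 -1.18 ± 0.25 SE, edgeR adjusted p = 0.0645).

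Other members had smaller coefficients. Gbp2, a guanylate-binding GTPase, was at -0.50, Irf9, the DNA-binding subunit of the ISGF3 complex, at -0.43, Ifit1, a sensor of foreign RNA, at -0.63, and Isg15, a ubiquitin-like modifier, at -0.71. For Isg15 the fasted mice did not overlap (1.90, 1.79 and 2.76 against 0.963, 0.988, 0.936 and 1.28 CPM), while in fed mice the M-p110βKO mouse 22, at 2.05 CPM, lay among the controls. In the 12 mice 11 of 20 genes had lower estimates at an unadjusted p under 0.05, with a median of -0.45. Leaving out each mouse in turn gave 11 to 14 genes and medians of -0.472 to -0.358. Ifi203, which was called, is not a member of the list.

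The sequences 250 bases upstream of the RefSeq start (GRCm38.p6) are shown for 4 interferon genes with lower estimates that carry an interferon-type motif, and for Ifi203, the called interferon-inducible gene. Capitals mark GAAANNGAAA or its reverse complement TTTCNNTTTC, searched on both strands, with overlapping matches joined.
Rsad2 (chr12:26456453-26456702, minus strand): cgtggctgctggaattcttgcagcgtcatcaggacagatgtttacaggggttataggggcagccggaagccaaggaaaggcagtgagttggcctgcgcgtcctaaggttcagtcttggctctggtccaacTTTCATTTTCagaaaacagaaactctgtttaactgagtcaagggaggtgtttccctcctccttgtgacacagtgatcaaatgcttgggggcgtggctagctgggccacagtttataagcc
Gbp2 (chr3:142620413-142620662, plus strand): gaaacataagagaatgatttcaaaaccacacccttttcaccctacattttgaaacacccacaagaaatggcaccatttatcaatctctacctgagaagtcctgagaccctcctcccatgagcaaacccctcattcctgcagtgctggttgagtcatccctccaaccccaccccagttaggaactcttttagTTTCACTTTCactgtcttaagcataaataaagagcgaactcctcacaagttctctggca
Ifit1 (chr19:34640639-34640888, plus strand): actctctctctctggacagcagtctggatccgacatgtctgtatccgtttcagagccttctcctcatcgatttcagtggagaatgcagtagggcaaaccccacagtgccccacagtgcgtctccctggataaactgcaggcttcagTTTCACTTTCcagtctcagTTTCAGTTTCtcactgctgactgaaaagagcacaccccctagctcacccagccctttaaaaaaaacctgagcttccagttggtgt
Isg15 (chr4:156200819-156201068, minus strand): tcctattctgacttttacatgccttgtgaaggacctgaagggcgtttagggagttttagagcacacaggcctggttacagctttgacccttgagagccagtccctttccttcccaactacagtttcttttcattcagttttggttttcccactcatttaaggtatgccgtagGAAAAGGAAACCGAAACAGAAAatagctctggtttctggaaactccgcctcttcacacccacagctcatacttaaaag
Ifi203 (chr1:173942673-173942922, minus strand): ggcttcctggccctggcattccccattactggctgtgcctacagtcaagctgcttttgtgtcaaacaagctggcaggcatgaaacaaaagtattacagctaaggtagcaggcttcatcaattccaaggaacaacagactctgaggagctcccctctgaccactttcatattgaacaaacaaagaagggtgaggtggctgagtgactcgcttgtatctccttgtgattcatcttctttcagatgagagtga
The motif was found once upstream of Rsad2 and Gbp2, at 2 places upstream of Ifit1, at 3 overlapping or adjoining places upstream of Isg15 and at 0 upstream of Ifi203. Of the 16 tested interferon genes with a sequence, 9 held it (56.2%), against 217 of 9053 tested genes (2.4%) and 823 of all 27025 windows (3.05%). Among the 12 interferon genes with a sequence and an unadjusted p under 0.05, 7 held it. A match describes the letters of these windows and shows no binding.

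Of 19 genes of MHC class I and II, which present peptides to T cells, 0 were called by edgeR. At an unadjusted p under 0.05, 5 had lower estimates, against 5.23% of all genes, and the median was -0.19. H2-D1, a class I heavy chain, spanned 102 to 119 CPM in fed controls, 91.3 to 94.4 CPM in fed M-p110βKO, 95.7 to 120 CPM in fasted controls and 70.6 to 84.4 CPM in fasted M-p110βKO mice (log2 -0.40 ± 0.08 SE, edgeR adjusted p = 0.0502). Genotypes did not overlap, but the H2 genes share near-identical sequence and their reads may be split between copies. B2m, the light chain of class I, was at -0.34. Without the fed controls 17 and 18, 10 of 19 genes had an unadjusted p under 0.05.

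Slow fiber genes had lower estimates that rested on 1 control. Of 14 tested genes, 7 had lower estimates at an unadjusted p under 0.05, against 5.23% of all genes. The median was -0.36, and 0 were called by edgeR. Myh7 was at 35.0 CPM in the fasted control 25 against 1.27 and 1.79 CPM in mice 23 and 24 and 0.741 to 4.66 CPM in fasted M-p110βKO mice, and its coefficient moved from -1.57 to 0.40 without mouse 25. Without that mouse 0 of the 14 genes had a lower estimate at an unadjusted p under 0.05, and the median was -0.17. Fast fiber genes had a median of 0.0657 and 0 calls, with 3 of 14 higher at an unadjusted p under 0.05, against 4.68% of all genes.

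Genes of the insulin pathway upstream and downstream of PI3K had no calls in the edgeR test. Over all genes 4.68% had higher and 5.23% lower estimates at an unadjusted p under 0.05, and the counts of this and the following lists are to be read against these shares. Among insulin and IGF receptors and substrates, 6 of 16 had lower and 1 had higher estimates at an unadjusted p under 0.05. Irs2, the receptor substrate that FoxO factors induce in fasting, was at 22.3, 33.7 and 31.3 against 24.8, 30.4, 26.2 and 25.3 CPM in fed mice, and at 176, 168 and 269 against 80.1, 154, 86.1 and 91.4 CPM in fasted mice. The fed genotypes overlapped and the fasted ones did not (log2 -0.60 ± 0.18 SE, edgeR adjusted p = 0.211). Insr and Igf1r, the receptors for insulin and IGF-1, were at -0.23 and -0.19. Of 30 AKT and mTOR genes, 4 had lower and 2 had higher estimates at an unadjusted p under 0.05, and of 21 FoxO factors and atrophy ligases 2 lower and 1 higher.

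Of 31 autophagy genes, 5 had lower estimates at an unadjusted p under 0.05 and 27 were below 0, with a median of -0.07. Gabarapl1, a membrane-bound protein of the autophagosome, was at 16.1, 16.2 and 20.1 against 15.0, 15.4, 14.7 and 17.8 CPM in fed mice and at 67.1, 65.8 and 98.8 against 46.6, 46.3, 45.5 and 51.1 CPM in fasted mice (log2 -0.47 ± 0.12 SE, edgeR adjusted p = 0.139). Ulk1, the kinase that starts autophagy, was at 346, 318 and 409 against 244, 256, 173 and 289 CPM in fasted mice and overlapped in fed mice (log2 -0.35 ± 0.11 SE, edgeR adjusted p = 0.250). For both genes the genotypes were apart in fasted mice only, and the difference between states was not called for either.

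Among 17 lipid droplet and lipolysis genes, 5 had lower and 2 had higher estimates at an unadjusted p under 0.05. Lipe, hormone-sensitive lipase, had -0.49 ± 0.13 SE (edgeR adjusted p = 0.154) and G0s2, an inhibitor of the lipase ATGL, 0.96. Lipe is itself abundant in adipocytes, and its coefficient was -0.34 in the 12 mice. Lpl, lipoprotein lipase, had 600, 940 and 938 against 491, 399, 565 and 340 CPM in fed mice and overlapped in fasted mice (log2 -0.50 ± 0.19 SE, edgeR adjusted p = 0.371). Of 33 genes of fatty acid uptake and oxidation, 4 had lower and 1 had higher estimates at an unadjusted p under 0.05. Pdk4 was at -0.42. Its fasted mean was 5710 CPM in controls and 5400 CPM in M-p110βKO mice. The part of the fed controls 17 and 18, given above, in this coefficient was not tested.

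Nuclear genes of mitochondrial energy supply had medians near 0. These were 0.0334 for 23 TCA cycle genes, -0.0159 for 37 complex I genes and -0.0166 for 38 genes of complexes III and IV and ATP synthase. None of these genes was called by edgeR, and 0 had an unadjusted p under 0.05. The 59 cytosolic ribosomal protein genes had a median of 0.00275, with 0 called by edgeR and 0 at that threshold. The 32 proteasome subunits had a median of 0.0758, with 1 gene at that threshold. Among 12 genes encoded by mitochondrial DNA, 4 had higher estimates at an unadjusted p under 0.05 and the median was 0.188, falling to 0.0274 in the 12 mice. Mitochondrially encoded reads made up 7.73 to 8.12% of counts in mice 24 and 23 and 9.73 to 12.2% in the others.

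1 mitochondrial gene took 2 separate levels. mt-Nd3, a subunit of complex I, was at 2810 to 3490 CPM in the 3 M-p110βKO mice 19, 21 and 27, at 20.0 to 59.1 CPM in the other 11 mice of the line and at 1940 to 4190 CPM in all 15 mice of the p110α line, with scaling over all 29 libraries. The genotype coefficient of 4.98 (edgeR adjusted p = 0.0925) therefore averages M-p110βKO mice at both levels. Without these 3 mice the genotype coefficient called 22 genes, 10 of them among the 19 called with all mice, and 9 of the 19 lost their call.

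Markers of other cells moved with the libraries that stood apart. The 9 markers of fibroblasts and fibro-adipogenic cells had a median of -0.287 in 14 mice, 0.0372 in 12 mice and -0.509 without the fed controls 17 and 18, when 8 of 9 had an unadjusted p under 0.05. The 27 collagen and matrix genes had a median of -0.0958, which became 0.0521 in the 12 mice and -0.217 without mice 17 and 18. Macrophage markers had a median of 0.0896, which was 0.503 in the 12 mice and -0.252 without mice 17 and 18. Endothelial markers, which line the capillaries, had a median of -0.012, and satellite cell markers one of 0.00554. No direction is given for the fibroblast, matrix and macrophage genes, because it changed with these leave-outs. Of the myogenic genes, 4 of 20 had higher estimates at an unadjusted p under 0.05, led by Myod1, the myogenic transcription factor (log2 0.48 ± 0.12 SE, edgeR adjusted p = 0.109).

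The lists not described above held no calls, and their medians lay between -0.322 for 4 erythrocyte genes and 0.136 for 2 tendon genes. The median of 18 immediate early genes, -0.0573, was 0.239 without mouse 25.

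**Figure D4:**
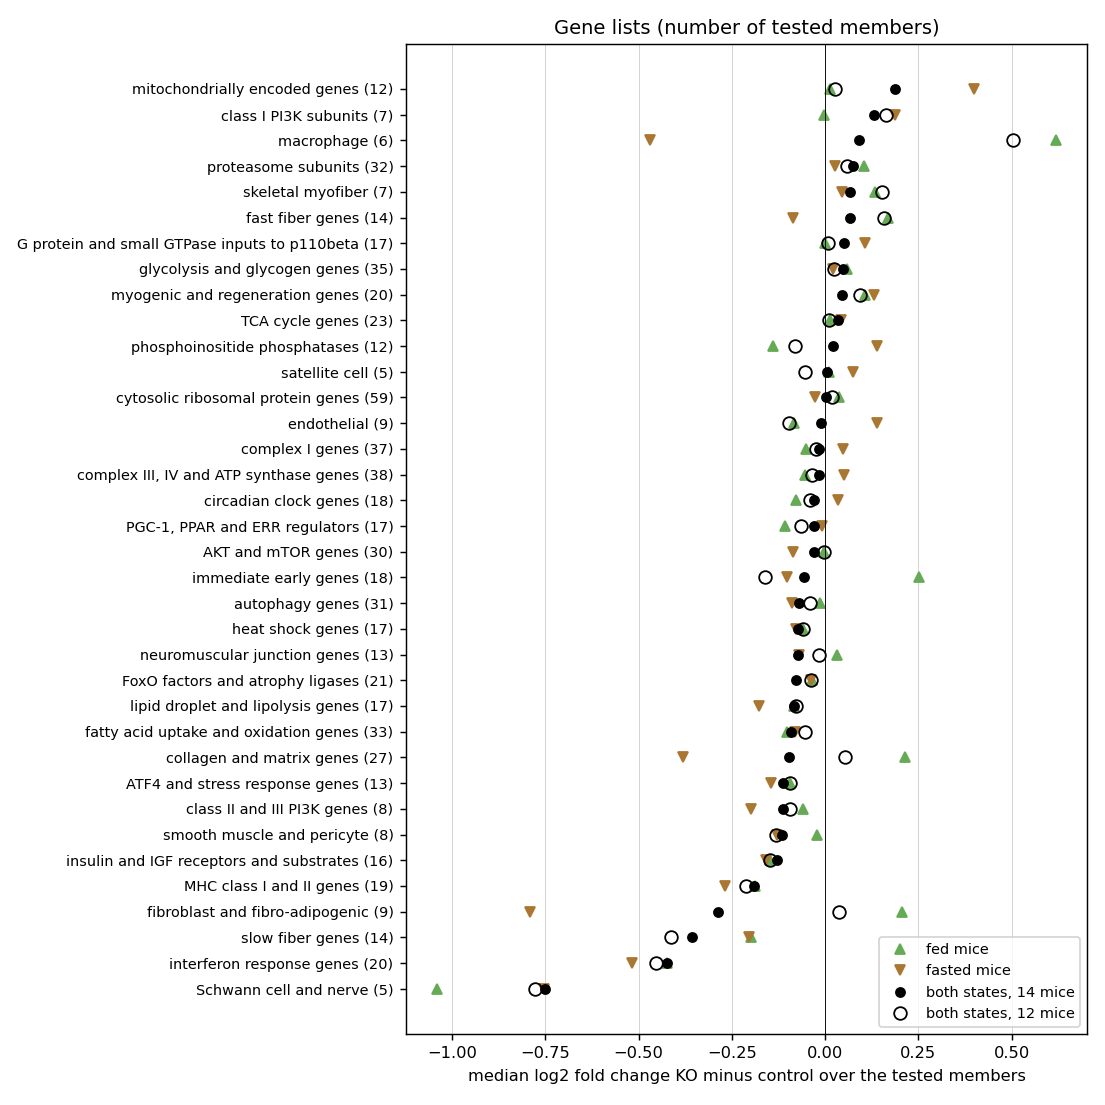
Median genotype log2 fold change over the tested members of each gene list, in 14 mice (filled circle), in 12 mice (open circle), in fed mice (green triangle) and in fasted mice (brown triangle), for lists with at least 5 tested members. The Schwann cell and interferon medians lie below 0 in all 4, as do those of other lists, such as slow fiber, MHC and insulin receptor genes. The fibroblast, collagen and macrophage medians lie on opposite sides of 0 in fed and fasted mice.

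Within feeding states the average covered unlike contrasts. In a fit with 4 group means over 12249 genes, 0 genes were called between genotypes in fed mice by edgeR, with 1060 at an unadjusted p under 0.05, while DESeq2 called 30 and limma-voom 0. In fasted mice 109 genes were called (0.89%), 36 higher (0.294%) and 73 lower (0.596%). Without mice 23 and 24 the same contrast called 29 genes (0.225% of 12895), 4 higher (0.031%) and 25 lower (0.194%). Mouse 25 is then the only fasted control, so this arm has 1 mouse whose spread is taken from the other groups. The fed and fasted coefficients share no mice, and 45.6% of all genes had the same sign in both. Among the 185 genes with an unadjusted p under 0.05 in both states, 56.2% did. All 19 genes called in the average had the same sign in both states, which the average itself favours, and 9 of them were also called in fasted mice.

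The interaction of genotype and feeding was called for 13 genes (0.106%) and for 0 of the 19 genes above, or for 7 genes (0.0543%) without mice 23 and 24, again with mouse 25 as the single fasted control and the spread of the other groups. Srxn1, sulfiredoxin, was at 16.4, 13.4 and 16.2 against 21.6, 18.3, 20.2 and 19.3 CPM in fed mice and at 144, 157 and 180 against 80.1, 106, 97.7 and 88.2 CPM in fasted mice. The M-p110βKO mice were thus higher in the fed and lower in the fasted state, without overlap in either (interaction log2 -1.14, edgeR adjusted p = 0.0218). Cyp26b1, which degrades retinoic acid, ran the other way, with 3.17, 6.60 and 6.97 against 1.25, 0.866, 0.814 and 0.137 CPM in fed mice and 3.80, 4.10 and 3.34 against 9.63, 2.84, 5.08 and 9.41 CPM in fasted mice (interaction 3.67, edgeR adjusted p = 0.0385). Esrrg, the nuclear receptor ERRγ, was lower in fed M-p110βKO mice by -0.48 and higher in fasted ones by 0.82 (edgeR adjusted p = 0.0385). The count of 13 fell to 0 without mouse 17, 19, 24, 26 or 28, to 1 without mouse 23, to 2 without 18, to 4 without 22, to 5 without 21 and to 6 without 29, and rose to 44, 63 and 141 without mice 16, 27 and 25.

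Fewer genes were called for p110β loss than for p110α loss. In 1 fit to all 29 mice and 12377 genes, 580 genes were called for p110α (4.69%) and 29 for p110β (0.234%), and the difference of the coefficients was called for 70 genes (0.566%), or 26 without mice 23 and 24 (0.205%), 34 without mouse 24 alone, 36 without mouse 23 alone and 42 without M-p110βKO mouse 26 or 29. The lines share no mice, but they differ in line as well as in the deleted gene, and these cannot be told apart. The knockout mice of both lines carry Cre, and whether controls did is not given. A change shared by both lines therefore cannot be assigned to gene loss or to Cre. Of the 19 genes called for p110β, 16 had the same sign for p110α, against 52.2% of all genes. 5 of these were called in the same direction for p110α, namely Tulp3 (log2 1.10), Mfhas1 (1.07), Scn3b (0.93), Ttyh2 (0.68) and Ctso (-0.39), and 0 in the opposite one. Rara, Spp1 and Clk1 had opposite signs, and the difference itself was called for Clk1 (edgeR adjusted p = 0.0345). Among the genes of the difference, H2-D1 was at -0.40 for p110β and 0.27 for p110α (difference -0.67, edgeR adjusted p = 0.00431), and Dusp26, a phosphatase, differed by -0.996.

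Of the 19 called genes, 5 lay on chromosome 11, which held 1006 of the 11826 tested genes. Chromosome 1 held 3, and no other chromosome held more than 2. On GRCm38 the 5 were Trim7 (chr11:48826140-48852209), Pmp22 (chr11:63128982-63159547), Rara (chr11:98927818-98974942), Plekhh3 (chr11:101162679-101171351) and Ttyh2 (chr11:114675431-114720977). The last 3 of these, Rara, Plekhh3 and Ttyh2, were also called without the adipocyte-rich fasted controls. Whether calls gather on chromosome 11, or follow the strain background of the line, was not tested. Plekhh3 shares 233 of its 3582 exon bases (6.5%) with Cntnap1 on the opposite strand, and Trim7 shares 491 (6.5%) with Gm16170. The counting is not stated to use strand, so reads there cannot be told apart, but Cntnap1 itself was at 0.988 to 4.69 CPM. Within 5000000 bases on either side of Pik3cb, 48 genes were tested. Of these, 0 were called by edgeR and 3 had an unadjusted p under 0.05 (6.25%), and the median coefficient was -0.0523.

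The number of calls moved with single mice. Leaving out each mouse in turn gave between 1 call, without control 18 or without M-p110βKO mouse 22, and 39 calls, without control 16. It gave 3 without M-p110βKO mouse 20, 2 without control 24, 8 without control 23 and 12 without mouse 26. Plekhh3 was the only gene called in all 14 of these fits (edgeR adjusted p 0.00821 to 0.0446, log2 0.5089 to 0.5971). Ttyh2 was called in 12, Tulp3 in 11 and Rara and Htra4 in 10. Without both fed controls 17 and 18, edgeR called 0 genes with 1018 at an unadjusted p under 0.05, and the single fed control left was taken to vary like the other groups. All 19 genes kept their sign in each of these fits. Since the fits reuse most of the mice in which the genes were picked, this is no further test.

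**Figure D5:**
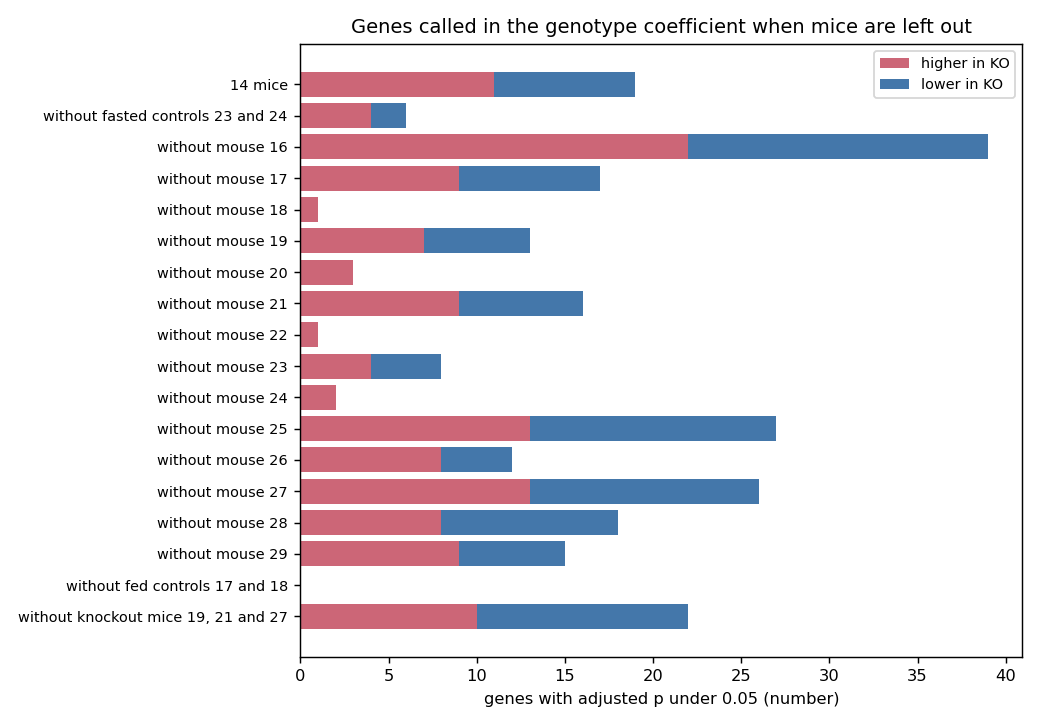
Number of genes called higher (red) and lower (blue) by genotype in the additive model with all 14 mice and with the named mice left out. The count runs from 0 without mice 17 and 18 to 39 without mouse 16, against 19 with all mice.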

How the data were processed

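RNA of skeletal muscle was sequenced in 29 mice, of which the 14 of the p110β line enter the estimates. The authors deposited a table of raw read counts per gene (48023 Ensembl genes, of which 47224 were matched to a symbol). The submitters' processing notes name STAR, Subread and featureCounts and the build GRCm38, without versions. The counts were used as deposited.

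Genes passing filterByExpr (minimum count 10, minimum total 15) were scaled by TMM and tested with the edgeR quasi-likelihood test (edgeR 4.0.16, R 4.3.3) for genotype with feeding state as covariate, with Benjamini-Hochberg adjustment over all genes tested and a threshold of 0.05. Intervals are 95% and come from the same fit. A fit with 4 group means gave the contrasts within states and the interaction, and a fit to all 29 mice gave the comparison with p110α. The fit was tested on simulated counts with known changes. In this single run the share of false calls was above the threshold, and many of the smaller changes were missed. A single run cannot settle whether that share exceeds the threshold. Genes were drawn independently, so shifts of whole libraries were not simulated. DESeq2 1.42.0 and limma-voom (limma 3.58.1) were alternatives. Positions are from GENCODE M21 and upstream sequences from RefSeq.

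The genes named are the class I PI3K subunits, called genes whose libraries do not overlap, called members and lowest-p members of each list, genes called in 1 of the sets with and without mice 23 and 24, and the leading genes of the interaction and of the difference from p110α. The called genes that overlapped, the genes just outside the threshold, and Per2, Cilp, Hp, Dkk3 and Cntnap1 were named after their values were seen. Members and gene lists were chosen with earlier results of these data known. Depth per library is given with the results and limits the precision of genes at a few counts. Some genes met the rule and are not reported here.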

Additional observations from a re-analysis of the deposited data

Results flagged for a closer look

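In groups of 4 mice, Dixon's gap ratio of 1 mouse passed 0.829 in 9 of 146 values tested, and chance alone gives about 1 in 20. Mouse 27, a fasted M-p110βKO mouse, accounted for 4 of these. It held 0 CPM of Htra4 against 0.134 to 0.161 (ratio 0.833, a matter of 1 count), 154 CPM of Irs2 against 80.1 to 91.4 (0.847), 877 CPM of Lpl against 1870 to 1970 (0.908) and 2810 CPM of mt-Nd3 against 37.2 to 52.5 (0.994). Among the other fasted M-p110βKO mice, mouse 28 held 3.21 CPM of Cyp2e1 against 0.16 to 0.642 (0.842) and mouse 29 held 1.28 CPM of Isg15 against 0.936 to 0.988 (0.847).

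In fed M-p110βKO mice, mouse 19 held 0.625 CPM of Spp1 against 0.407 to 0.433 (0.882, 4 counts against 3), mouse 22 held 0.957 CPM of Reln against 2.03 to 2.16 (0.889), and mouse 20 held 11.8 CPM of Igfn1 against 17.1 to 18.0 (0.858).

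The genotype effect differed between feeding states, by the edgeR interaction test, for Srxn1 (-1.143 on the log2 scale, adjusted p = 0.0218), Gm45221 (2.946, adjusted p = 0.0218), Cyp26b1 (3.666, adjusted p = 0.0385) and Esrrg (1.296, adjusted p = 0.0385). Gm45221 is an unnamed gene model that stood at 1.83, 4.40 and 4.33 CPM in fed controls against 0.547 to 1.15 CPM in fed M-p110βKO mice, and at 2.95 to 3.80 CPM in fasted controls against 4.79 to 8.42 CPM in fasted M-p110βKO mice.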

How the results depend on the processing

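No paired analysis was possible because each mouse has a number of its own and none is shared between groups. The 19 genes called by genotype kept their sign in all 28 alternatives. These reuse the mice in which the genes were picked, so the kept signs are no further test. The number of calls did not hold. It was 425 with no filter on low counts, 62 with DESeq2, 41 with 4 group means, 0 with genotype alone (494 at an unadjusted p under 0.05), 6 with an adipocyte covariate and 6 without mice 23 and 24. In leave-outs chosen after seeing the data it was 0 without mice 17 and 18 (1018 unadjusted) and 0 without mice 17, 18, 23 and 24 (619 unadjusted). Leaving out single mice gave 1 to 39. DESeq2 size factors (21), upper-quartile factors (19), a filter of 1 CPM (23), limma-voom (20) and removal of the mitochondrial and most abundant genes (21) stayed near 19. In the 12 mice, 6 became 48 with DESeq2 and 2 with limma-voom. Fed mice gave 0, or 30 with DESeq2. Fasted mice gave 109, or 173 with DESeq2, 65 with limma-voom, 29 without mice 23 and 24 and 19 in the additive coefficient. The interaction gave 13, or 377 with no filter, 40 with DESeq2, 0 with limma-voom (1495 unadjusted) and 7 without mice 23 and 24, and 0 to 141 with single mice left out. The difference from p110α gave 70, or 431, 134 and 26 with no filter, DESeq2 and without mice 23 and 24, and 34 to 91 with single mice left out. Feeding calls stayed between 5121 and 5653 with single mice left out. The genotype difference passed the adjusted threshold by exact permutation on the second principal component of the 500 most variable genes (10.48, adjusted p = 0.0424) and on the fourth with unit variance (37.88, adjusted p = 0.0261). By the same test it did not pass on the second with unit variance (25.44, adjusted p = 0.335). Nor did it on the fourth of the 500 genes (0.7365, adjusted p = 0.814). Without mice 23 and 24, with mouse 25 as the single fasted control, the differences were 12.17 on the second and 16.48 on the fourth. Some uncalled coefficients changed sign. With the adipocyte covariate, Pik3ca was -0.07262, Pik3cb -0.02679 and Scd1 0.01302. Without mice 23 and 24, Pik3ca was -0.1015, Pik3cb -0.0321, Cfd 0.411 and Scd1 0.4458, and without mice 17, 18, 23 and 24 they were -0.07462, -0.04802, 1.209 and 0.2649. With single mice left out, Pik3ca ranged from -0.008686 (mouse 24) to 0.1123, Pik3cb from -0.01227 (mouse 22) to 0.04592, Pik3r6 from -0.1033 to 0.03263 (mouse 20) and Myh7 from -1.887 to 0.4048 (mouse 25), and Pik3r6 was 0.00603 without mice 17 and 18. The causes of these shifts were not tested. Depth limits the genes of a few counts per library, such as Cgref1, Spp1 and Htra4.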
